A study of Mus musculus with 12 samples.

Results

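The Ikaros family transcription factors Ikzf1 (Ikaros), Ikzf2 (Helios), Ikzf3 (Aiolos), Ikzf4 (Eos) and Ikzf5 (Pegasus) were examined in mouse B-ALL cells treated with the GSK3β inhibitor LY2090314. The 5 genes were taken as a named family and not by a cut on their values, but earlier results of these data were known at that time. All 5 were among the 41444 genes of the table. RNA-seq was made from bone marrow pre-B cells of Ctnnb1 fl/fl mice, which were transformed with BCR-ABL1 after culture with IL7. The floxed alleles allow Cre to delete Ctnnb1, which encodes β-catenin. The cells carried the ERT2 vector without Cre, so that β-catenin stays intact, or Cre-ERT2, and all cells received 1 µM 4-OHT for 2 days. The control group was ERT2 cells with 4-OHT alone (n = 3), and the treated group was ERT2 cells with 4-OHT and 40 nM LY2090314 for 1 day (n = 3). The study's text gives a shorter LY2090314 exposure than the labels do. The Cre-ERT2 samples were not analysed here. The cells are a retrovirally transformed model, and the age of the mice was not given in the sources used here.

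Ikaros factors bind DNA through zinc fingers near the N terminus that recognize a GGGAA core, and pair with each other through zinc fingers at the C terminus. They recruit corepressors such as the NuRD complex and guide B lymphoid development. Ikaros and Aiolos are the family members best known in B cells, where Ikaros acts from early progenitors and Aiolos rises as pre-B cells mature, while Helios and Eos are best known in regulatory T cells. Pegasus is the most divergent member.

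Expression was given as rlog values, a log2 scale that corrects for library size and draws genes with few reads towards their own mean. The library depths are unknown, and differences of low genes are understated. Control libraries carried the numbers 1, 2 and 3 and treated libraries the numbers 14A, 14B and 15. What the numbers stand for is not given. As they separate the groups fully, a difference in library handling could not be told apart from the effect of LY2090314. The study describes 3 mice per group, but no label says whether 14A and 14B came from separate animals. If they did not, p-values in part measure technical spread. The SD of the difference across genes was 0.186 between 14A and 14B, and 0.253 between either of them and library 15, so 14A and 14B were nearer to each other than to the third treated library. It was from 0.185 to 0.239 between control libraries, and at least 0.581 between groups. All 9 B lineage markers were measured above an rlog of 5.7 in every sample, and 8 of them fell with LY2090314, the exception being Cd79a (0.23, adjusted p = 0.053 from limma). Of 7 T lineage markers, 6, including the Cd3 chains, Cd4 and Foxp3, stayed under an rlog of 0, and the kinase gene Lck was the exception (11.41 in control and 12.36 in treated cells). Of 5 myeloid markers only Lyz2 exceeded an rlog of 3, at 5.80 in control and 6.34 in treated cells, with Mpo and Elane at 0. The part of Lck- or Lyz2-expressing cells in the results was not tested. All 3 erythroid and all 3 stromal markers stayed under 3. In bulk RNA, fewer cells of a type and less RNA per cell cannot be told apart. Axin2, a β-catenin target that served as a check of the treatment, rose by 1.67.

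With LY2090314, the Ikaros family changed in composition. Ikzf3 rose about 2.08-fold, Ikzf1 fell by a small amount from the highest level in the family, and Ikzf5 was slightly higher. Ikzf4 did not pass the test and Ikzf2 was too low to be tested. Of the 4 members with a mean rlog of at least 3, limma called 3 at an adjusted p under 0.05, 2 higher and 1 lower. Over the 11536 genes tested, 50.1% were called, 24.8% higher and 25.3% lower, so a call by itself was common among all genes. The samples of both groups did not overlap for 3 of these 4 members, against 58.6% of all genes tested.

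**Figure D1:**
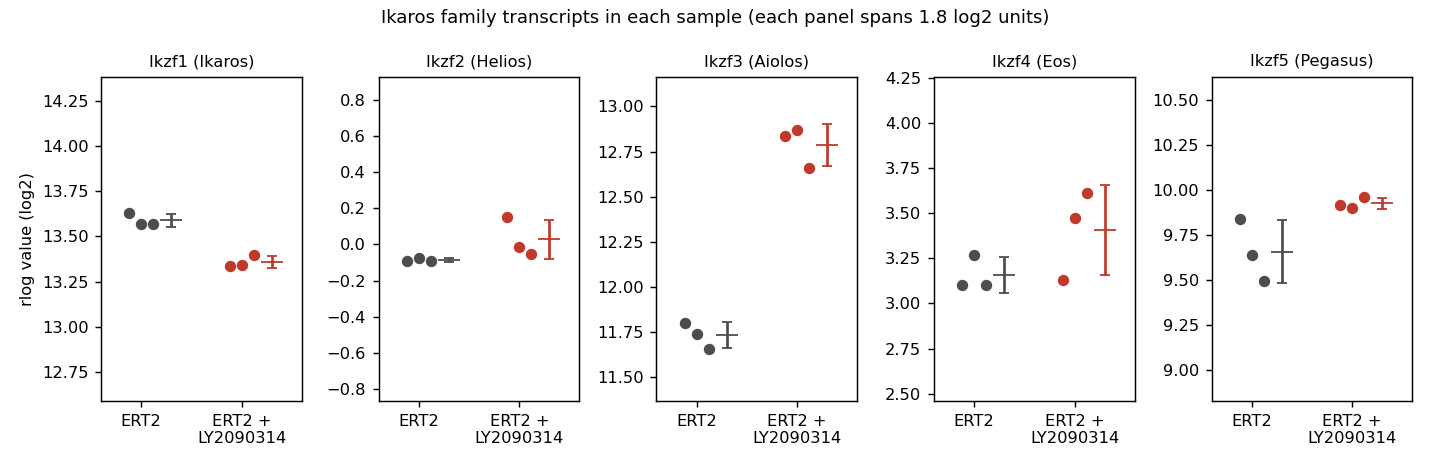
rlog values (log2 scale) of the 5 Ikaros family genes in 3 control and 3 LY2090314-treated ERT2 samples. Dots are single samples in the order 1, 2, 3 and 14A, 14B, 15, and bars give the mean ± SD. Every panel spans the same range of log2 units, and the gap between the groups is widest for Ikzf3.

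Ikzf3 encodes Aiolos, which restrains pre-B cell proliferation together with Ikaros. The gene (ENSMUSG00000018168) lies on chromosome 11 of GRCm38, from 98464902 to 98546031 on the minus strand. Its rlog values were 11.80, 11.74 and 11.65 in control libraries 1, 2 and 3, and 12.83, 12.87 and 12.66 in treated libraries 14A, 14B and 15. Each treated sample was above each control sample by more than the range within either group. The mean was 11.73 ± 0.073 in control and 12.79 ± 0.12 in treated cells (SD, n = 3 each), and Ikzf3 rose by 1.06 on the log2 scale (standard error 0.070, 95% confidence interval 0.90 to 1.22, adjusted p = 1.2e-05 from limma). A difference of this size or larger in either direction was found in 5.52% of the genes tested. Permuting the sample labels exactly (two-sided) gave p = 0.10 for Ikzf3, Ikzf1, Ikzf2 and Ikzf5, and groups of 3 cannot give a smaller value. No exon of another annotated gene overlaps the exons of Ikzf3.

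Ikzf1 encodes Ikaros, a regulator of lymphoid commitment that is often deleted in human B-ALL. The gene (ENSMUSG00000018654) lies on chromosome 11, from 11685003 to 11772926 on the plus strand. Its rlog values were 13.63, 13.57 and 13.57 in the control samples and 13.34, 13.34 and 13.39 in the treated samples. All treated samples were lower, and the gap between the groups was larger than the range within either. The log2 difference was −0.23 (standard error 0.050, 95% confidence interval −0.35 to −0.11, adjusted p = 0.0062 from limma), from 13.59 ± 0.036 to 13.36 ± 0.031 (SD, n = 3 each). The treated level was 1.17-fold lower on the linear scale. A difference at least this large in either direction was found in 51.6% of the genes tested, so its size was near the middle of all genes. Ikzf1 is abundant in these cells, and 97.8% of the genes tested had a lower mean rlog value, which is not adjusted for gene length. Gm11999 and Gm12000, which lie on the other strand of the locus, share no exon base with it.

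Ikzf5 encodes Pegasus, a widely expressed member of the family. The gene (ENSMUSG00000040167) lies on chromosome 7, from 131388652 to 131410521 on the minus strand. Its rlog values were 9.84, 9.64 and 9.50 in the control samples and 9.92, 9.90 and 9.96 in the treated samples. The control samples spread more widely than the treated ones, and control library 1 came close to the treated range without reaching it. Ikzf5 rose by 0.27 (standard error 0.086, 95% confidence interval 0.070 to 0.47, adjusted p = 0.032 from limma), from 9.66 ± 0.17 to 9.93 ± 0.029 (SD, n = 3 each). A difference at least this large in either direction was found in 45.6% of the genes tested. This call was lost when any single library except control 1 was left out (adjusted p from 0.065 to 0.090), and the difference was 0.19 without control library 3. Pstk on the other strand shares 4652 exon bases with Ikzf5 and fell by 0.59 (adjusted p = 0.0016 from limma), from 7.46 to 6.87. The library kit keeps strand, but whether the quantification used strand is not stated, and the part of Pstk reads in the Ikzf5 value was not tested.

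Ikzf4 encodes Eos, a partner of Foxp3 in regulatory T cells. The gene (ENSMUSG00000002578) lies on chromosome 10, from 128630843 to 128645991 on the minus strand, and was close to the lower limit of expression. Its rlog values were 3.10, 3.27 and 3.10 in the control samples and 3.13, 3.48 and 3.61 in the treated samples, so the groups overlapped through treated library 14A. The log2 difference was 0.25, with a 95% confidence interval from −0.050 to 0.55 (adjusted p = 0.15 from limma). Without library 14A the difference was 0.39 (adjusted p = 0.018), so this library decided the call. It shares 37 exon bases with Gm26876 on the other strand, which stayed under an rlog of 0.

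Ikzf2 encodes Helios. The gene (ENSMUSG00000025997) lies on chromosome 1, from 69531214 to 69687245 on the minus strand, and had the lowest level in the family. Its rlog values were −0.094, −0.073 and −0.094 in the control samples and 0.15, −0.016 and −0.050 in the treated samples. The treated samples were above the control samples, most of the gap coming from library 14A. At this level rlog values lie close to the mean of the gene by construction, and a change in either direction was not detectable. Gm29114 on the other strand, which shares 144 exon bases with Ikzf2, was at 0 in all samples.

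To compare the members with each other, the log2 of the exon length in kb was subtracted from the rlog value. The length was that of all annotated exons merged, from 5.72 kb for Ikzf5 to 11.6 kb for Ikzf2, and not that of the isoforms in use. On this scale the order of the levels was Ikzf1, Ikzf3, Ikzf5, Ikzf4 and Ikzf2 in both groups. No neighbours in this order overlapped in any sample of the same group. The level per kb in control cells was 11.06 ± 0.036 for Ikzf1, 8.60 ± 0.073 for Ikzf3, 7.14 ± 0.17 for Ikzf5, 0.57 ± 0.098 for Ikzf4 and −3.62 ± 0.012 for Ikzf2 (SD, n = 3). In treated cells Ikzf1 was at 10.83 ± 0.031 and Ikzf3 at 9.66 ± 0.12 (SD, n = 3), so Ikzf3 stayed below Ikzf1 after its rise.

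**Figure D2:**
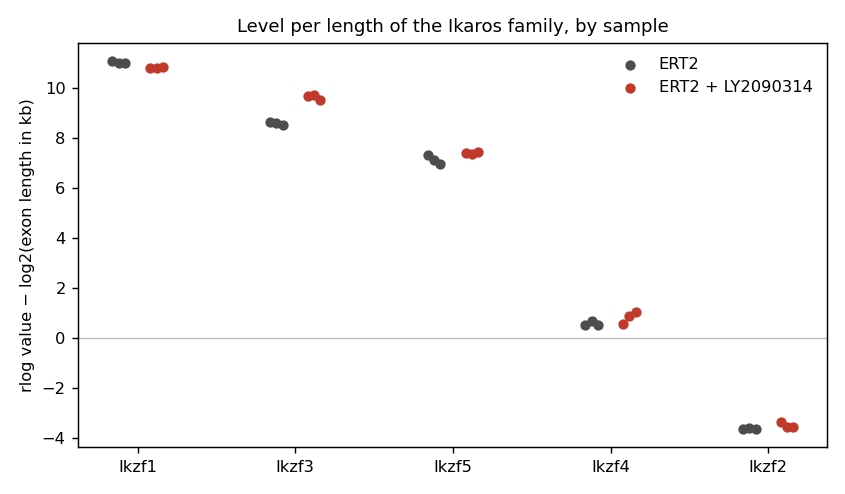
Level per length (rlog value minus log2 of the exon length in kb) of the 5 family members, with 1 dot per sample for 3 control and 3 treated ERT2 samples. Ikzf1 is highest in both groups, and the distance from Ikzf1 to Ikzf3 shrinks with LY2090314.

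The distance between Ikzf1 and Ikzf3 narrowed from both sides. On the linear scale, the Ikzf1 level per kb was 5.39, 5.40 and 5.71 times that of Ikzf3 in control libraries 1, 2 and 3. The ratio was 2.15, 2.10 and 2.53 in treated libraries 14A, 14B and 15. All treated ratios were thus below all control ratios. The log2 distance fell by 1.29, from 2.46 ± 0.048 to 1.17 ± 0.15 (SD, n = 3 each), and gene length cancels out of this change. Ikzf3 provided 14.6% ± 0.34 of the summed level per kb of the family in control cells and 28.9% ± 2.0 in treated cells (SD, n = 3 each). The share of Ikzf1 went from 80.1% ± 0.78 to 65.0% ± 1.9, and that of Ikzf5 from 5.32% ± 0.47 to 6.08% ± 0.17 (SD, n = 3 each). Ikzf4 and Ikzf2 together provided less than 0.1% in every sample. The summed level itself was 11.38 ± 0.047 in control and 11.45 ± 0.012 in treated cells on the log2 scale, a difference of 0.071. These ratios and sums are given as a description, without a test.

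**Figure D3:**
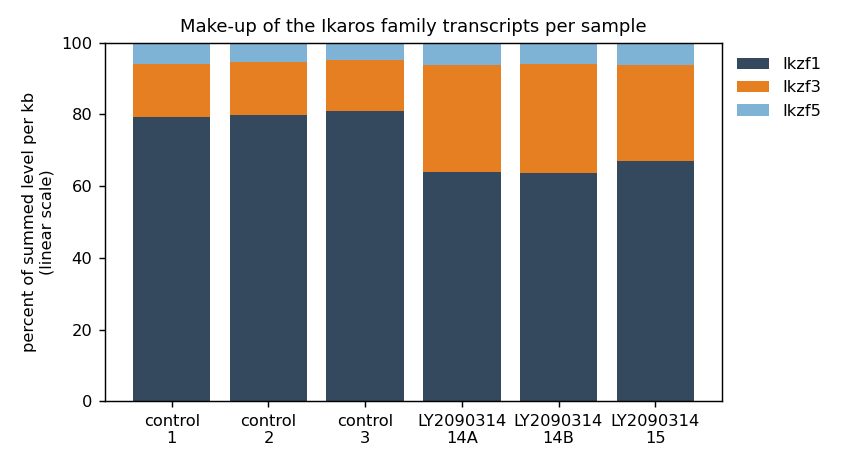
Share of Ikzf1, Ikzf3 and Ikzf5 in the summed level per kb of the Ikaros family (percent, linear scale) in each of 3 control and 3 treated libraries. Bars are single libraries, Ikzf2 and Ikzf4 are too low to be seen, and the share of Ikzf3 is 14.2% to 14.8% in control and 26.5% to 30.3% in treated libraries.

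The RefSeq promoter table held entries for 2 of the 5 members, Ikzf1 and Ikzf5. They are shown because the Ikaros core and the TCF/LEF core, through which β-catenin is classically recruited, can be looked up in them. Whether these cores bear on the change of either gene was not tested. The 250 bases before each start site are given 5′ to 3′ on the strand of the gene (GRCm38.p6), with matches to GGGAA or its reverse complement TTCCC and to CTTTGA or its reverse complement TCAAAG in capitals.
Ikzf1, first start (chr11:11685675-11685924, plus strand): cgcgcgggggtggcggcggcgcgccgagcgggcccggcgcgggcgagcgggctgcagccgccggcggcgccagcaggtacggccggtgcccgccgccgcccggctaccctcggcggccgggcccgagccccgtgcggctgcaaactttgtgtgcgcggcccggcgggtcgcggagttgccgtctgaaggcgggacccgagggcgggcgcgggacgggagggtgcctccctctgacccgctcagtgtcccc
Ikzf1, second start (chr11:11689927-11690176, plus strand): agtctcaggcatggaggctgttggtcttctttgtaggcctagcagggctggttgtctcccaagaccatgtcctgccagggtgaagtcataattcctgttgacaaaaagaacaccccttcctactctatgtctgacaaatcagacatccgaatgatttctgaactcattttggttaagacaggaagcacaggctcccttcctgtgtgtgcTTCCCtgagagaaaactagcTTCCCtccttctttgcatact
Ikzf5 (chr7:131410479-131410728, minus strand): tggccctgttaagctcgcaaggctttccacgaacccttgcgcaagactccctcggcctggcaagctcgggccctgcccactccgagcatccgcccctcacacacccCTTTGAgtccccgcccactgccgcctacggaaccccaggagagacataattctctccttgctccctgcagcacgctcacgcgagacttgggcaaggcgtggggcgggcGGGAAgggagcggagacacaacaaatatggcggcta

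The window of the first Ikzf1 start, with a GC content of 82.0%, held neither core. The window of the second Ikzf1 start held the Ikaros core 2 times on the reverse strand, beginning 41 and 21 bases before the start, and no TCF/LEF core. The Ikzf5 window held 1 of each on the forward strand, at 144 bases before the start for TCF/LEF and 36 bases for Ikaros. Of 32851 promoter windows of this length, 56.2% held the Ikaros core and 13.8% the TCF/LEF core on either strand. First and second refer to the RefSeq entries. By the GENCODE positions given above, both Ikzf1 windows lie inside the gene, and the Ikzf5 window overlaps the 5′ end of its gene. The values at hand are per gene, so they do not tell which Ikzf1 start was in use.

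For each member with a mean rlog of at least 3, the 3 genes with the most similar course over the 6 samples were named by the Euclidean distance between mean-centred rlog values. Closest to Ikzf3 were Rragd, a small GTPase of nutrient sensing (distance 0.045), Slc16a6, a transporter of the monocarboxylate family (0.067), and Myb, a transcription factor of haematopoietic progenitors (0.092). These genes rose by 1.06, 1.05 and 1.00. Closest to Ikzf1 were Parp1, a DNA damage sensor (0.039), Tipin, a replication fork protein (0.041), and Tdrd3 (0.046), with differences of −0.23, −0.24 and −0.21. Closest to Ikzf5 were Esco1 (0.086), Gmfb (0.091) and Jarid2 (0.095), and closest to Ikzf4 were Tceanc2 (0.16), Tubb6 (0.16) and Mtif3 (0.17). The 3 genes closest to Ikzf4 did not pass the test, as Ikzf4 itself did not. Because closeness was measured on these same 6 samples, differences and calls like those of the member follow largely from the selection.

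Among corepressors that Ikaros factors recruit, more genes were lower than higher. This list and those that follow were chosen with earlier results of these data known, so their counts are a description only. Of 17 genes of NuRD, Sin3 and CtBP, 16 had a mean rlog of at least 3, of which 9 fell, 1 rose and 6 did not pass the test, beside 25.3% lower and 24.8% higher over all genes tested. The median log2 difference of the 16 was −0.22, against 0.01 over all genes tested. The largest falls were those of Mbd2, which binds methylated DNA (−0.76, adjusted p = 6.0e-05 from limma), and Mta1, a scaffold subunit of NuRD (−0.75, adjusted p = 2.8e-05 from limma). Chd4, the main NuRD remodeler, fell by 0.24, and Hdac1, a deacetylase, was the gene that rose, by 0.15. Mta2 (−0.06) and Rbbp4 (0.01) did not pass the test.

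Genes whose products act on Ikaros proteins after translation are set beside the share over all genes tested, of which 50.1% were called, 24.8% higher and 25.3% lower. The CRL4-CRBN ubiquitin ligase is the complex through which thalidomide analogues degrade human Ikaros and Aiolos. Of its 6 genes, 3 fell, with log2 differences of −0.35 for Ddb1, −0.29 for Cul4b and −0.27 for the substrate receptor gene Crbn. Dda1 rose by 0.25, and Cul4a and Rbx1 did not pass the test. With 4 of 6 genes called, the ligase was not far from the share over all genes. Of 8 kinase and phosphatase genes, 1 rose, 2 fell and 5 did not pass. The number called was 2 to 4 with 1 sample left out, so this list too was not far from the share over all genes. Syk, a kinase of pre-B cell receptor signaling that phosphorylates Ikaros, rose by 0.48 (adjusted p = 0.00015 from limma). The protein phosphatase 1 genes Ppp1cb and Ppp1ca fell, with log2 differences of −0.54 and −0.29. Casein kinase 2, which phosphorylates Ikaros and lowers its DNA binding, had differences of 0.17 for Csnk2a1, 0.15 for Csnk2a2 and −0.19 for Csnk2b, none past the threshold.

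Genes that Ikaros factors are known to repress in lymphoid cells were mostly lower. Of 11 genes, 7 fell, 2 rose and 2 did not pass the test, beside 25.3% lower and 24.8% higher over all genes tested. The median log2 difference of the list was −1.0, against 0.01 over all genes. As the list was chosen with earlier results of these data known, its counts and median are a description only. Igll1 and Vpreb1 of this list are also among the B lineage markers given above. Myc, the driver of growth and proliferation, had rlog values of 11.84, 11.77 and 11.76 in the control and 9.15, 9.17 and 9.13 in the treated samples. It fell by 2.64 (adjusted p = 1.9e-08 from limma). The surrogate light chain genes Igll1, Vpreb1 and Vpreb2 fell by 1.42, 1.27 and 1.17, where reads of the near-identical Vpreb1 and Vpreb2 may be shared. Ccnd3, the D cyclin of pre-B cells, fell by 1.09, Hes1 by 1.00 and the integrin gene Itga5 by 0.78. In contrast, Dntt, which encodes terminal transferase, rose by 0.64 and Cdk6, a partner of D cyclins, by 0.65. Spn (−0.12) and Ptk2 (−0.03) did not pass the test.

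Genes that Ikaros factors promote in pre-B cells moved in opposite directions. All 5 passed the test, 2 higher and 3 lower, where 50.1% of all genes tested passed, in near equal numbers in each direction. Rag1 and Blnk, which are among the lower genes of this list, were already counted among the B lineage markers given above. Igkc, the constant region of the κ light chain, had rlog values of 8.40, 8.56 and 8.55 in the control and 11.55, 11.55 and 11.56 in the treated samples. It rose by 3.05 (adjusted p = 2.3e-08 from limma), whereas the recombinase genes Rag1 and Rag2 fell by 1.93 and 1.81. The adaptor gene Blnk fell by 0.44 and Foxo1, an activator of the Rag genes, rose by 0.27. Both interferon regulatory factors that act upstream of Ikaros and Aiolos in pre-B cells were called, in opposite directions, beside 50.1% called over all genes. Irf4 rose by 1.41 (adjusted p = 7.6e-07 from limma), from 12.77, 12.78 and 12.69 to 14.17, 14.21 and 14.11. Irf8 fell by 0.49 (adjusted p = 9.3e-05 from limma), from 11.74, 11.73 and 11.83 to 11.29, 11.29 and 11.25. The groups did not overlap for either gene, as for 58.6% of all genes tested.

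**Figure D4:**
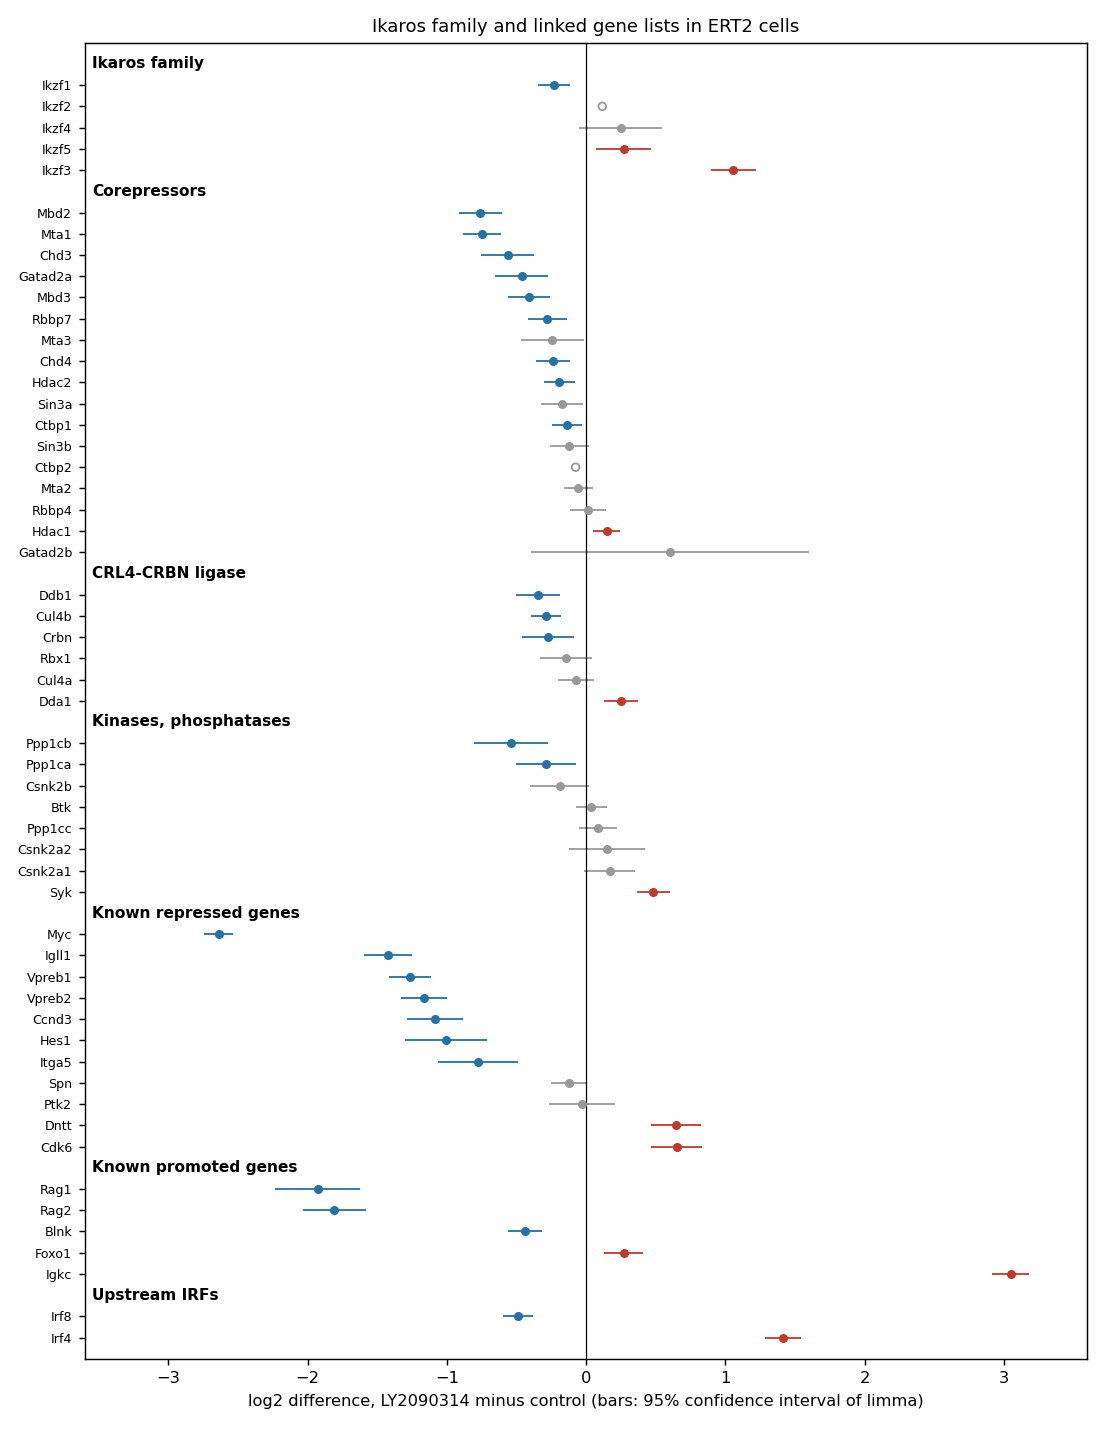
Log2 differences (LY2090314 minus control, ERT2 cells, n = 3 each) of the Ikaros family and of the linked gene lists, with 95% confidence intervals from limma. Red is higher and blue lower at an adjusted p under 0.05, filled grey did not pass, and open grey was under a mean rlog of 3. Within the family only Ikzf3 exceeds a difference of 1.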

How the data were processed

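RNA-seq libraries of polyadenylated RNA were made with a stranded kit and sequenced paired-end. Per the study's methods, the authors used Salmon for transcript abundance, STAR for alignment (GRCm38, GENCODE vM24) and DESeq2 1.30.1 downstream, and deposited 1 table of regularized log2 (rlog) values for 41444 genes. Which samples and options entered the transformation is not given in the sources used here. The table holds no read counts, so no count-based test, depth or counting interval could be given. Of 12 columns, 3 were matched by name to ERT2 control cells and 3 to ERT2 cells with LY2090314. The other 6 columns, whose names combine Cre and LY in 2 spellings, were not used. The authors' own fold changes are not part of the table.

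Genes with a mean rlog of at least 3 over the 6 samples (11536) were fitted with limma 3.58.1 in R 4.3.3 (eBayes, prior variance following the mean), with p-values adjusted over all of them by Benjamini-Hochberg and a threshold of 0.05. Single members were also compared by an exact two-sided permutation test. The fit was also run on simulated data with independent samples and far fewer changed genes than were called here. That run does not show how the fit behaves under the present conditions. Symbols were matched to 41157 genes, and positions and exon lengths come from GENCODE vM21 of GRCm38. Genes named are the members, the lists, the checks Ctnnb1, Gsk3b and Axin2, and the 3 genes closest to each member. Pstk, Gm11999, Gm12000, Gm26876 and Gm29114 were named afterwards for their overlap with a member. The members and lists were chosen with earlier results of these data known. Ctnnb1 fell by 0.35 (adjusted p = 0.00030) and Gsk3b was higher by 0.13 (adjusted p = 0.051). Alternatives were a fit without the trend, no limit or a limit of 5 on the mean, median centring, quantile normalization, leaving out each sample, counting libraries 14A and 14B as 1 sample, and a limit of 1 on the log2 difference.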

Additional observations from a re-analysis of the deposited data

How the results depend on the processing

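No paired analysis was possible because nothing in the header of the table links a column to the numbered replicates in the labels. The directions of Ikzf1, Ikzf3, Ikzf4 and Ikzf5 were kept in every alternative in which they were computed, both scalings included. Ikzf3 passed the threshold in all 12, with a log2 difference of 1.01 to 1.12 and an adjusted p (limma) of at most 0.00033. Ikzf1 also passed in all 12 (−0.26 to −0.20, adjusted p at most 0.032). The limit of 1 on the log2 difference is not among these 12. Of the called members only Ikzf3 (1.06) exceeds that limit, and Ikzf1 (−0.23) and Ikzf5 (0.27) do not. Leaving out 1 sample moved Ikzf5 between 0.19 and 0.36, and its call was also lost without a limit on the mean (0.27, adjusted p = 0.085), with quantile normalization (0.24, adjusted p = 0.051) and with libraries 14A and 14B counted as 1 sample (0.28, adjusted p = 0.069). The cause was not tested. Leaving out 1 sample moved Ikzf4 between 0.15 and 0.39. Ikzf2 had an adjusted p of 0.19 without a limit on the mean. The number of genes called, 5778, was 4734 to 6228 with 1 sample left out and 693 with a log2 difference of at least 1. That limit left 0 corepressor, ligase, kinase and phosphatase genes, 6 of the repressed genes, 3 of the promoted genes and Irf4, by construction. Quantile normalization lowered the share of calls that were higher from 49.5% to 43.4%. The depth of the libraries is unknown, which limits Ikzf2 and Ikzf4 most.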
